A study of Mus musculus with 18 samples.

Results

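REDD1, REDD2, TXNIP and the sestrins are 6 stress-responsive proteins, encoded in the mouse by Ddit4, Ddit4l, Txnip, Sesn1, Sesn2 and Sesn3, whose transcripts were followed here in the retina of diabetic and normoglycemic mice. They were taken as the rows of the deposited count files with these gene symbols, 6 of 35006 gene names, and all 6 passed the filter on low counts that left 16183 genes for testing. The 18 poly(A) RNA-seq libraries came from whole retina of male mice and fell into 4 groups. WT (n = 3) were C57BL/6J mice given plain water, and WT + NACET (n = 6) were the same strain that drank N-acetyl-L-cysteine ethyl ester (NACET), dissolved to 0.33 mg/mL, for a daily intake of 50 mg/kg. Akita (n = 4) and Akita + NACET (n = 5) were C57BL/6-Ins2Akita/J mice, whose dominant Ins2 mutation misfolds proinsulin in the beta cells of the pancreas and causes insulin-dependent diabetes, on water or on NACET. Water or NACET was given from 4 to 24 weeks of age in all groups. The labels number the libraries but do not say whether each held the retina of a single mouse, so the p-values measure the spread between these libraries.

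These proteins connect stress with growth control and redox balance. REDD1 and its paralogue REDD2 restrain the kinase complex mTORC1 through the TSC proteins, and REDD1 is induced by hypoxia, glucocorticoids, the integrated stress response factor ATF4 and high glucose. TXNIP is an alpha-arrestin that binds thioredoxin and limits glucose uptake, and its gene is among those most directly induced by glucose, through the factors MondoA and ChREBP. The sestrins bind GATOR2, the leucine-sensing branch upstream of mTORC1, engage AMPK, and promote the removal of KEAP1, which frees NRF2. SESN1 is known as a p53 and FoxO target, SESN2 as a target of NRF2 and ATF4, and SESN3 as a FoxO target. NACET is a cell-permeable cysteine donor for glutathione synthesis, which the study examined as an inducer of NRF2.

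Promoter sequences of 2 members are shown, because Txnip carries the best-known glucose-responsive promoter of the group and Sesn1 was the member whose transcript changed. Each is the run of 250 bases directly before a start site, 5′ to 3′ on the strand of the gene, from the RefSeq promoter table (build GRCm38.p6). The 250 bases of each of the 7 member promoters in that table were found unaltered at a single place in the mm9 genome, the build of the counts, and the positions given are those of mm9. Capitals in the Txnip sequence mark, from left to right, a FoxO core and a pair of E-box variants, and lower case marks all other bases. The Txnip sequence lies on the plus strand at chr3:96361630-96361879. Sesn1, also on the plus strand, has 2 start sites, and the sequences before them lie at chr10:41530130-41530379 (upstream start) and chr10:41606995-41607244 (internal start).
Txnip promoter: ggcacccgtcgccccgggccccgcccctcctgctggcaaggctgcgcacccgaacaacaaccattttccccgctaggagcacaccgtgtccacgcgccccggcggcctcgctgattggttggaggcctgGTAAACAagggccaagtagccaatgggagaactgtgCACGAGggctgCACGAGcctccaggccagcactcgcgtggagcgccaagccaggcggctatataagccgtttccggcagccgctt
Sesn1 upstream promoter: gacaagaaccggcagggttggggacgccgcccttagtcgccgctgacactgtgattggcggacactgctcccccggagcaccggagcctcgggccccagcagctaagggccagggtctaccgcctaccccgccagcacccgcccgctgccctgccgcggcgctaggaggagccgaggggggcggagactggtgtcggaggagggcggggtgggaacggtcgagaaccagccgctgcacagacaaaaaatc
Sesn1 internal promoter: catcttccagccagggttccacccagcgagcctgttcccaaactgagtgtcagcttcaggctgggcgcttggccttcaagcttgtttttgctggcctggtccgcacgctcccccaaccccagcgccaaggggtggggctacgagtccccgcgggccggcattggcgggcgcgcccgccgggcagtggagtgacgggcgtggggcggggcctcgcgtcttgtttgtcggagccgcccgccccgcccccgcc

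The promoters, 250 bases before to 50 bases after each start, were searched on both strands for 5 short motifs. The E-box variant CACGAG, which occurs in tandem in elements read by MondoA and ChREBP, began 85 and 74 bases before the Txnip start and in no other member, while 6.475% of the 32851 promoters in the table held it. This variant was added to the search after the data had been seen. The plain E-box core CACGTG, present in 7.15% of promoters, and the glucocorticoid receptor motif AGAACA, in 18.97%, occurred in none of the 7. The FoxO core GTAAACA, held by 3.65% of promoters, began 121 bases before the Txnip start and 22 bases after the upstream Sesn1 start, beyond the sequence shown. The antioxidant response element core TGACNNNGC, held by 12.39% of promoters, lay 46 bases before the Ddit4l start and 36 bases before the Sesn2 start. The Sesn2 start used here lies 45 bases inside the gene as annotated in mm9, so the motif there also lies within that gene. No searched motif was found for Ddit4 or Sesn3, which says only that these letters are not in these windows.

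The 6 transcripts spanned a wide range of abundance in the retina. Levels between genes were compared as RPKM, which is CPM divided by the exon length in kilobases, CPM being counts scaled to a common library size. Ddit4 was the most abundant, with a mean of 109.0 RPKM over all libraries, above 96.9% of the 15896 tested genes with a known length. Sesn1 followed with 50.0 RPKM, above 92.2% of genes. Sesn3 had 13.8 RPKM and Sesn2 7.33 RPKM, which placed them above 74.2% and 60.3% of genes. Ddit4l, with 1.74 RPKM, and Txnip, with 1.03 RPKM, stood above 30.6% and 22.3% of genes. This order of the genes held in each of the 18 libraries, apart from 1 library in which Txnip exceeded Ddit4l, and the ranges over all libraries overlapped for that last pair alone. Ddit4 was 62.8 times as high per length as its paralogue Ddit4l, and Sesn1 was 6.82 times as high as Sesn2.

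**Figure D1:**
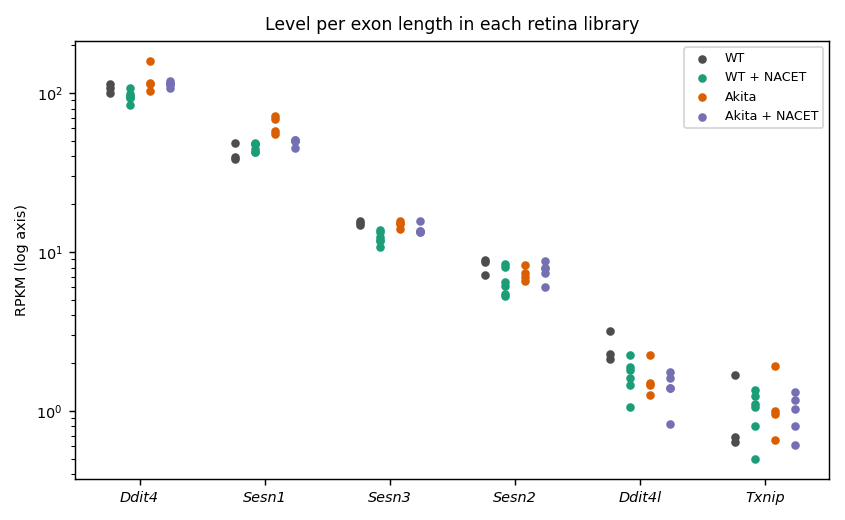
Level of the 6 transcripts in each retina library as RPKM on a log axis, with points coloured by group. The genes run from Ddit4 at 84.6 to 160.1 RPKM down to Txnip at 0.501 to 1.93 RPKM, and Ddit4l and Txnip overlap.

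The libraries held 11590380 to 18073790 gene counts each and showed retinal identity, since the rod markers Sag, Pde6b, Gnat1 and Nrl together took 22044 to 45926 CPM. In bulk retina, fewer cells of a type and less RNA per cell cannot be told apart. Lens markers exceeded 100 CPM in 4 libraries, 1 WT + NACET library at 19279 CPM, 1 Akita library at 2411 CPM and 2 Akita + NACET libraries at 1067 and 298 CPM, against at most 50.2 CPM elsewhere. The mutated gene itself, Ins2, had at most 9 counts per library in any group and so could not serve as a check of the labels. The share of reads that fell outside exons was 16.3% ± 1.24 (SD, n = 3) in WT, 12.7% ± 2.74 (n = 6) in WT + NACET, 11.5% ± 1.83 (n = 4) in Akita and 16.4% ± 2.11 (n = 5) in Akita + NACET.

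**Figure D2:**
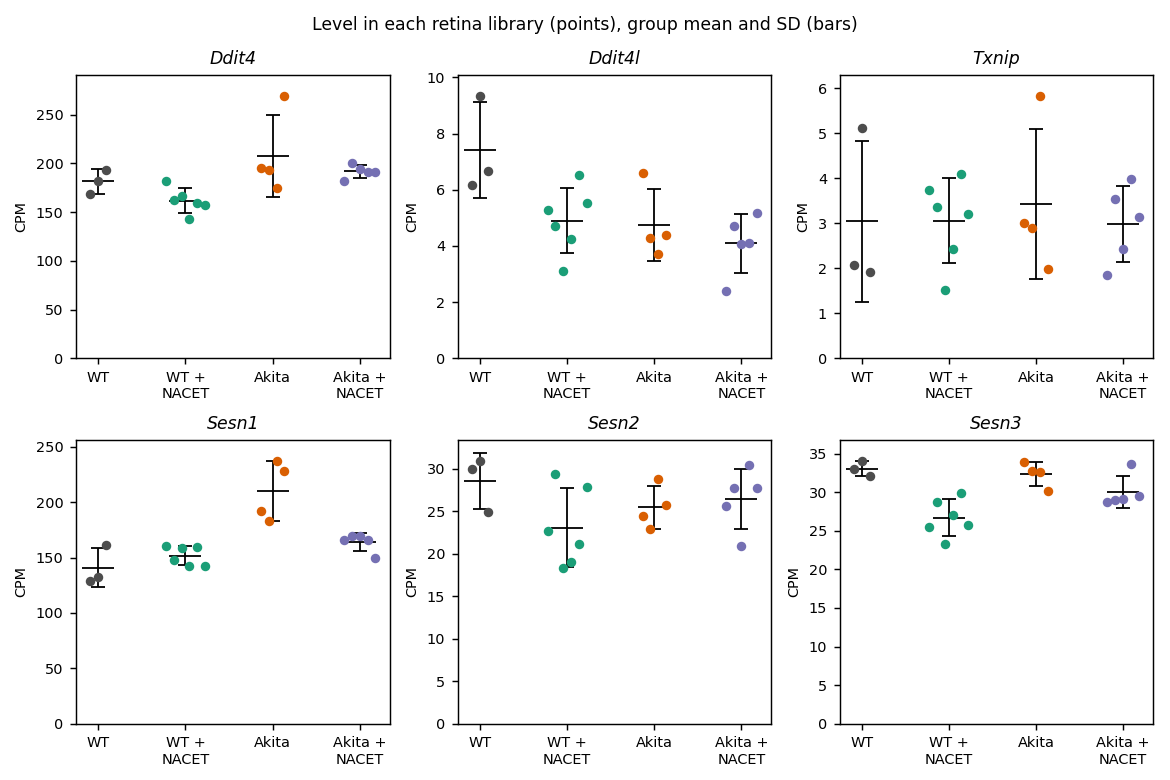
CPM of each of the 6 genes in each library (points) by group, with the group mean and SD (bars), on axes that start at 0. For Sesn1 all 4 Akita libraries, at 183 to 237 CPM, lie above every other library, while the groups of Txnip and Sesn2 overlap throughout.

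Sesn1 was the member that differed with diabetes. Sesn1, which encodes the p53- and FoxO-regulated sestrin, lies at chr10:41530380-41628230 on the plus strand (mm9, ENSMUSG00000038332.6). The WT libraries had 129, 133 and 161 CPM, and the Akita libraries had 192, 183, 237 and 228 CPM. The groups did not overlap, since the lowest Akita library stood above the highest WT library. The means were 140.8 ± 17.6 CPM (SD, n = 3) in WT and 210.1 ± 26.8 CPM (n = 4) in Akita, a log2 fold change of 0.58 ± 0.10 (SE) or 1.49-fold, with a 95% interval of 1.29 to 1.73-fold and an adjusted p of 0.0117 by the quasi-likelihood test of edgeR. Sesn1 ranked 17 of 16183 genes by p in this contrast, in which 7.64% of all genes tested were called, and 23.2% had no overlap between the groups. It was the only 1 of the 6 members in either count.

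NACET was accompanied by a lower Sesn1 in Akita retina. The Akita + NACET libraries had 166, 170, 169, 166 and 149.95 CPM, with a mean of 164.1 ± 8.14 CPM (n = 5), and all lay below the lowest Akita library. Sesn1 fell by 0.36 ± 0.09 (SE) on the log2 scale, to 0.78 of the Akita level (95% interval 0.69 to 0.89), with an adjusted p of 0.0219 by edgeR. Of all genes tested 9.65% were called in this contrast and 14.1% had no overlap, and Sesn1 was again the only member in either count. The same Akita libraries enter this comparison, that of Akita with WT and the interaction given below, so the Sesn1 results of these are not independent.

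In normoglycemic retina the difference of Sesn1 with NACET did not pass the test. WT + NACET libraries ranged from 142 to 161 CPM around a median of 153 CPM, and overlapped the WT libraries. The log2 fold change was 0.11 ± 0.09, with an adjusted p of 0.535 and an interval of 0.94 to 1.23-fold. The effect of NACET in Akita minus that in WT, tested as an interaction, was -0.46 ± 0.13 on the log2 scale (adjusted p = 0.0177, edgeR). Sesn1 was the only member called for the interaction, against 20.3% of all genes tested. With NACET in both genotypes, Akita + NACET exceeded WT + NACET by 0.11 ± 0.08 in log2 (adjusted p = 0.343). Treated Akita exceeded untreated WT by 0.22 ± 0.10, with overlapping libraries (interval 1.01 to 1.34-fold, unadjusted p = 0.0327 and adjusted p = 0.9996, edgeR). An unadjusted p under 0.05 was found in that contrast for 750 of the 16183 genes tested. The unadjusted interval lies wholly above no difference and the adjusted test did not pass. Neither a return to the WT level nor a remaining difference was therefore shown. In the order of group means, WT, WT + NACET and Akita + NACET therefore did not differ beyond the threshold between neighbours, and Akita stood above them.

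Markers of several cell types and the share of reads outside exons also differed between the groups. The summed 4 rod markers were 24341 to 34262 CPM in WT, 30227 to 41253 CPM in WT + NACET, 32205 to 45926 CPM in Akita and 22044 to 29800.1 CPM in Akita + NACET. Of these 4, Nrl was called higher in Akita against WT, Gnat1 and Nrl were called lower with NACET in Akita, and all 4 had a negative interaction that was called, none being at 0 in any group. The 6 markers of pigment epithelium and choroid summed to 135 to 552 CPM in WT, 372 to 1289 CPM in WT + NACET, 57.7 to 205 CPM in Akita and 85.6 to 629.9 CPM in Akita + NACET. Their medians, 173, 754, 82.1 and 561 CPM in the same order, were lowest where Sesn1 was highest and highest in WT + NACET. The ranges of WT and Akita overlapped. None of these 6 markers was called in Akita against WT, with NACET in either genotype or for the interaction. Between Akita + NACET and WT + NACET, 1 was called lower. The 3 amacrine cell markers found in the files (Pax6, Slc6a9 and Gad1, of 5 listed) were all called lower in Akita against WT (median log2 fold change -0.66), had positive values with NACET in Akita (0.39), and 2 of them had a positive interaction that was called. Their sum was 492 to 659 CPM in WT, 390.2 to 523 CPM in WT + NACET, 295 to 444 CPM in Akita and 459.5 to 543 CPM in Akita + NACET. Of 5 red blood cell markers, 2 were called higher with NACET in Akita, with sums of 11.9 to 33.9 CPM in Akita and 35.7 to 97.2 CPM in Akita + NACET. Calls were also found among markers of cones, Mueller glia, astrocytes, horizontal cells, vascular endothelium and pericytes, in at least 1 contrast that called Sesn1. The part of all markers other than those of rods in the Sesn1 result was not tested. Per 1000 CPM of rod markers, Sesn1 was 4.97 ± 0.30 in WT (SD, n = 3), 4.44 ± 0.37 in WT + NACET (n = 6), 5.56 ± 0.44 in Akita (n = 4) and 6.10 ± 0.49 in Akita + NACET (n = 5). On this ratio the Akita libraries, at 4.97 to 6.03, overlapped the WT libraries, at 4.70 to 5.29, and the Akita + NACET libraries, at 5.57 to 6.80. The mean ratio was thus higher with NACET in Akita and lower with NACET in WT, the opposite of the direction of Sesn1 CPM in both genotypes, and these differences of the ratio were not tested.

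With the rod marker level as a covariate, chosen after the data had been seen, the Akita difference of Sesn1 was 0.36 ± 0.08 in log2 (interval 0.18 to 0.53, adjusted p = 0.365), and Sesn1 ranked 13 of all genes by p. The difference between Akita + NACET and Akita was then -0.0927 ± 0.08 (adjusted p = 0.982), and the interaction was -0.0586 ± 0.12 (adjusted p = 0.917). In the same fit Akita + NACET exceeded WT + NACET by 0.30 ± 0.07, a difference that then passed the test (adjusted p = 0.0227). Akita + NACET exceeded WT by 0.26 ± 0.07 there (interval 0.13 to 0.40), which did not pass (adjusted p = 0.297, edgeR). With the percentage of reads outside exons in the fit instead, the Akita difference of Sesn1 was 0.43 ± 0.11 (adjusted p = 0.273). The difference between Akita + NACET and Akita was then -0.21 ± 0.10 (adjusted p = 0.634), and the interaction was -0.21 ± 0.16 (adjusted p = 0.718). With edgeR and either covariate, 0 of the 16183 genes were called in Akita against WT or in Akita + NACET against Akita, where at an unadjusted p under 0.05 there were 1208 and 687 genes with the rod markers and 2022 and 1281 genes with the reads outside exons. Reads outside exons were 9.67 to 13.3% in Akita and 14.3 to 19.8% in Akita + NACET. Neither these shares nor the rod sums overlapped between the 2 groups. The fits therefore cannot tell the part of either covariate from that of NACET in Akita. Reads outside exons, at 14.9 to 17.1% in WT, did not overlap between WT and Akita either. The fit with that share therefore cannot tell its part from that of genotype in Akita against WT.

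**Figure D3:**
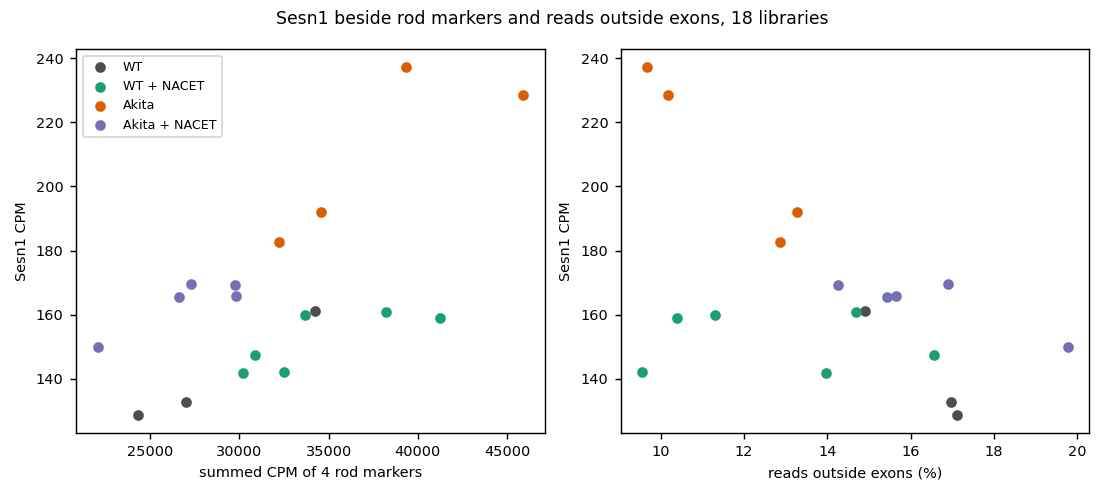
Sesn1 CPM in the 18 libraries against the summed CPM of 4 rod markers (left) and against the percentage of reads outside exons (right), coloured by group. The 4 Akita libraries, at 183 to 237 CPM, have rod sums of 32205 CPM or more and at most 13.3% of reads outside exons, and the Akita + NACET libraries have rod sums of at most 29800.1 CPM.

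The other sestrins did not follow Sesn1. Sesn2, the sestrin induced by NRF2 and ATF4, lies at chr4:132047947-132066416 on the minus strand. Its CPM was 29.9, 30.9 and 24.9 in WT and 24.4, 22.9, 28.8 and 25.7 in Akita, with overlapping groups and a log2 fold change of -0.17 ± 0.16 (adjusted p = 0.516, interval 0.71 to 1.12-fold). In Akita + NACET it was 25.6, 27.7, 20.9, 30.4 and 27.7 CPM, which spanned the Akita libraries, and the log2 fold change between them was 0.06 ± 0.14 (adjusted p = 0.822, interval 0.85 to 1.27-fold). WT + NACET libraries ran from 18.3 to 29.4 CPM around a median of 21.9 CPM, below WT in the mean by 0.31 ± 0.14 in log2, a difference that did not pass the test (adjusted p = 0.241).

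Sesn3, the FoxO-regulated sestrin at chr9:14080745-14130582 on the plus strand, varied least over the 18 libraries, with a coefficient of variation of 10.6%, against 14.6% to 37.0% for the other members. Its CPM was 33.0, 34.1 and 32.2 in WT and 33.9, 32.8, 32.6 and 30.2 in Akita, a log2 fold change of -0.03 ± 0.09 (adjusted p = 0.863, interval 0.86 to 1.12-fold). These intervals exclude for Sesn2 and Sesn3 the 1.49-fold difference seen for Sesn1. In WT + NACET Sesn3 ran from 23.3 to 29.9 CPM around a median of 26.4 CPM, and all 6 libraries lay below the 3 WT libraries. The log2 fold change of -0.31 ± 0.09 (interval 0.71 to 0.91-fold) missed the threshold in edgeR (adjusted p = 0.0705) and passed it in DESeq2 over all groups (adjusted p = 0.0222). Sesn3 was the only member whose groups did not overlap in WT + NACET against WT, where 11.5% of all genes did not. None of the 6 members was called by edgeR, against 1.48% of all genes called. An unadjusted p under 0.05 was found for 3 of the 6, beside 3162 of the 16183 genes tested. In Akita + NACET the libraries had 28.7, 29.0, 29.2, 33.7 and 29.5 CPM, and overlapped the Akita libraries (log2 fold change -0.11 ± 0.08, adjusted p = 0.397).

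Ddit4, at chr10:59412423-59414518 on the minus strand, encodes REDD1, the mTORC1 inhibitor most often studied in the diabetic retina. Its CPM was 169, 182 and 194 in WT and 195, 193, 175 and 269.7 in Akita. A single Akita library stood high, and the other 3 lay within the range of the WT libraries or just above it. The means of 181.5 ± 12.3 CPM and 208.1 ± 42.1 CPM gave a log2 fold change of 0.20 ± 0.12, which did not pass the test (adjusted p = 0.281, interval 0.97 to 1.35-fold). Without that library, Akita replicate 4, it was 0.0467, and without Akita replicate 3 it was 0.27. The Akita + NACET libraries had 182, 201, 195, 191 and 191 CPM, and the difference from Akita was -0.12 ± 0.10 in log2 (adjusted p = 0.468, interval 0.80 to 1.07-fold).

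Ddit4 came closest to a call between the treated groups. WT + NACET libraries ran from 143 to 182 CPM around a median of 161 CPM, all below the lowest Akita + NACET library, and the difference was 0.25 ± 0.09 in log2 (interval 1.04 to 1.35-fold, adjusted p = 0.0730). In this contrast 13.3% of all genes tested were called and 8.01% had no overlap. Ddit4 was the only 1 of the 6 members without overlap, and none was called by edgeR or by DESeq2 over all groups. An unadjusted p under 0.05 was found for 2 members, beside 5038 of the 16183 genes tested. Ddit4 passed the threshold in 5 of 21 alternative settings, among them DESeq2 on the 2 groups alone (adjusted p = 0.00216) and edgeR on the 2 groups alone (adjusted p = 0.0194). Per 1000 CPM of rod markers Ddit4 was 6.44 ± 0.70 in WT, 4.73 ± 0.40 in WT + NACET, 5.49 ± 0.71 in Akita and 7.17 ± 0.92 in Akita + NACET. On this ratio the untreated Akita libraries, at 4.44 to 5.99, overlapped the WT libraries, at 5.65 to 6.94, and the treated groups stayed apart.

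Ddit4l, at chr3:137284576-137291297 on the plus strand, encodes REDD2 and was highest in untreated WT retina. Its CPM was 6.18, 9.35 and 6.68 in WT, and 6.59, 4.29, 3.70 and 4.39 in Akita, from 35 to 117 counts per library over all groups. Akita + NACET had 2.41, 4.71, 4.08, 4.10 and 5.16 CPM, all below the 3 WT libraries, while WT + NACET ran from 3.11 to 6.54 CPM around a median of 4.998 CPM. The log2 fold changes against WT were -0.64 ± 0.26 in Akita (interval 0.44 to 0.93-fold, adjusted p = 0.114), -0.59 ± 0.23 in WT + NACET (adjusted p = 0.176) and -0.85 ± 0.24 in Akita + NACET (adjusted p = 0.805). None passed the adjustment, and these 3 differences share the same WT libraries. In Akita + NACET against WT, 0.00618% of all genes tested were called, which is 1 gene, and 4.17% had no overlap. Ddit4l was the only member without overlap there, and none of the 6 was called by edgeR or by DESeq2. An unadjusted p under 0.05 was found for 2 members, beside 750 of the 16183 genes tested.

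Txnip, the glucose-induced member, was the least abundant and did not differ detectably between any groups. The gene lies at chr3:96361880-96365806 on the plus strand. Its CPM was 2.08, 5.12 and 1.93 in WT, from 29 to 64 counts, and 3.02, 2.90, 5.84 and 1.99 in Akita, from 24 to 93 counts. A single library stood high in each of these groups. The log2 fold change in Akita was 0.20 ± 0.39 (adjusted p = 0.776), and its interval of 0.65 to 2.02-fold does not exclude a difference as large as that of Sesn1. In Akita + NACET it was 1.86, 3.54, 2.42, 3.98 and 3.13 CPM, with a log2 fold change against Akita of -0.21 ± 0.34 (adjusted p = 0.719, interval 0.53 to 1.41-fold). WT + NACET libraries ran from 1.52 to 4.10 CPM around a median of 3.28 CPM, and the log2 fold change against WT was 0.03 ± 0.36 (adjusted p = 0.972). The coefficient of variation of Txnip was 59.1% in WT and 48.5% in Akita, and leaving out single libraries moved the Akita difference from -0.18 (without Akita replicate 3) to 0.79 (without WT replicate 2), so that a difference of Txnip within the interval was not detectable in Akita.

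The Txnip counts carry a further limit from the annotation. The antisense lincRNA Gm15441, at chr3:96359688-96370724 on the minus strand, overlaps 606 of the 3031 exon bases of Txnip, which is 19.99%. The counting did not use strand, so reads wholly within the shared stretch could not be assigned to either gene. In Sesn2, the transcript Gm12981 on the same strand shares no exon base with the gene. No other annotated gene overlaps the remaining 4 members.

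**Figure D4:**
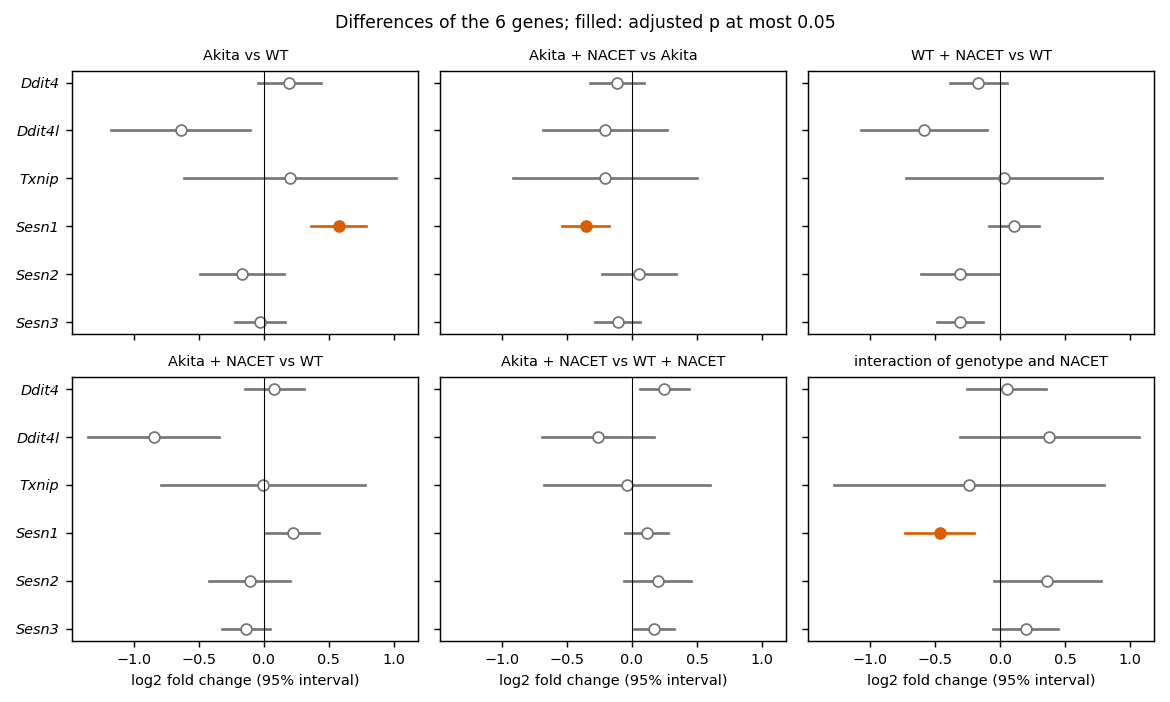
Log2 fold change of each of the 6 genes with its 95% interval in the 5 pairs of groups and in the interaction, filled where the adjusted p was at most 0.05. Sesn1 is filled in Akita vs WT (0.58), in treated against untreated Akita (-0.36) and in the interaction (-0.46), no other gene is filled, and the intervals of Txnip and Ddit4l are the widest.

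The members varied largely apart from one another. Across the 18 libraries, the highest Pearson correlation of log2 CPM between members was that of Ddit4 and Sesn1 (r = 0.60), followed by Sesn2 and Sesn3 (r = 0.56) and Txnip and Sesn2 (r = 0.46). The lowest was that of Ddit4l and Sesn1 (r = -0.36). These correlations describe the pooled libraries, group differences included, and each pair shares the same libraries and depths.

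Among 14471 genes with a mean of at least 1 CPM, the patterns most like Sesn1 were those of Ddx19a (r = 0.96), Nt5e (r = 0.93) and Supt5h (r = 0.93). Ddx19a encodes an RNA helicase of mRNA export, Nt5e the ecto-5′-nucleotidase CD73 of rod photoreceptors, and Supt5h a transcription elongation factor. Like Sesn1, all 3 were higher in Akita than in WT, by 0.63, 0.60 and 0.30 in log2, a direction that their choice over the same libraries largely fixed. Nt5e reached 399.98 ± 68.0 CPM in Akita (n = 4) against 263 ± 39.7 CPM in WT (n = 3) and 300.07 ± 22.3 CPM in Akita + NACET (n = 5). By Pearson correlation the patterns closest to Ddit4 were those of Lrit1, Tob1 and Gm626 (r = 0.93 each, with ranks of 40.5, 64.5 and 25.5 by Spearman correlation), of which Lrit1 encodes a photoreceptor synaptic protein and Tob1 an antiproliferative factor. For Sesn3 they included Dynlt1-ps1 (r = 0.80) and Srrm3 (r = 0.77), and both of these were lower in WT + NACET than in WT, by -0.42 and -0.78 in log2, likewise over the libraries that chose them.

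The genes most like Txnip included Col1a2 (r = 0.85) and Ahnak (r = 0.85), the first of which encodes a chain of type I collagen. Col1a2 ran from 0.228 to 6.95 CPM among the WT + NACET libraries alone. Ddit4l varied most like Suox (r = 0.82), C630043F03Rik (r = 0.80) and AI846148 (r = 0.77), and Sesn2 most like Fstl4 (r = 0.78), Bcr (r = 0.78) and Il1rapl2 (r = 0.77).

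The partners and regulators of these proteins were followed in 11 lists with 130 genes, 120 of which were tested. In Akita against WT, 5 of the 120 were called, all higher, which is 4.17% against 7.64% of all genes. They were Tsc2, the TSC subunit through which REDD1 acts (log2 fold change 0.31 ± 0.09, adjusted p = 0.0405), Prkab1, a regulatory subunit of AMPK (0.83 ± 0.16, adjusted p = 0.0151), Nfe2l2, which encodes NRF2 (0.47 ± 0.12, adjusted p = 0.0266), Hif1a, the hypoxia factor (0.41 ± 0.11, adjusted p = 0.0307), and Vldlr, a lipoprotein receptor and ATF4 target (0.42 ± 0.13, adjusted p = 0.0482). Prkab1 rose from 183 ± 22.4 CPM (n = 3) to 324 ± 91.5 CPM (n = 4), and Nfe2l2 from 26.2 ± 1.05 to 36.3 ± 4.93 CPM. The median log2 fold change over the 120 genes was 0.02, beside -0.01 over all genes tested. Of 17 alternative settings, the call was kept in 5 for Tsc2, 6 for Vldlr, 9 for Nfe2l2, 10 for Hif1a and 12 for Prkab1.

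With NACET in Akita, 9 of the 120 were called, 7 of them lower, which is 7.50% against 9.65% of all genes. Tsc2 (-0.32 ± 0.08), Prkab1 (-0.71 ± 0.14), Nfe2l2 (-0.35 ± 0.10) and Hif1a (-0.31 ± 0.09), which had been higher in Akita, were lower with NACET (adjusted p = 0.0218, 0.0161, 0.0411 and 0.0441, edgeR). These 2 comparisons share the Akita libraries. Also lower were Txn1, the thioredoxin that TXNIP binds (-0.40 ± 0.12, adjusted p = 0.0463), Ccng1, a p53 target (-0.36 ± 0.09, adjusted p = 0.0241), and Ndrg1, a hypoxia-induced gene (-0.47 ± 0.14, adjusted p = 0.0397). Vegfa, the vascular growth factor induced by HIF (0.67 ± 0.17, adjusted p = 0.0273), and Mt2, a metallothionein (0.72 ± 0.22, adjusted p = 0.0422), were higher. Txn1 was 64.3 ± 6.37 CPM in Akita (n = 4) and 48.7 ± 9.58 CPM in Akita + NACET (n = 5), and Vegfa 6.93 ± 0.66 and 11.0 ± 3.49 CPM. Of 19 alternative settings, the call was kept in 5 for Txn1, 6 for Nfe2l2, 7 for Hif1a, 8 for Ndrg1 and 10 to 16 for the other 5 genes. The values for Nfe2l2 are of RNA. For NRF2 protein the study reported the reverse by Western blot, a lower level in Akita than in WT and a rise with NACET.

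The lists were also counted by role, against 7.64% of all genes called. Of the 16183 genes tested, 4377 had an unadjusted p under 0.05 in Akita against WT. In Akita against WT, 1 of 10 genes of the TSC and mTORC1 list was higher (median log2 fold change 0.02), 1 of 8 of the AMPK list (0.16) and 1 of 8 of the sestrin partners in autophagy and KEAP1 turnover (0.03), these being Tsc2, Prkab1 and Nfe2l2. The medians of the 16 tested genes of GATOR, Rag and Ragulator and of the 8 alpha-arrestins and thioredoxin partners were 0.05 and 0.15, with no gene called by edgeR or DESeq2 in either and 2 and 0 genes at an unadjusted p under 0.05. Among the target lists, 1 of 12 ATF4 targets was higher (median -0.09), and edgeR called no gene among the 11 FoxO targets (median 0.003), the 15 p53 targets (-0.09), the 12 glucocorticoid-induced genes (0.08) or the 11 HIF targets (0.08). In these 4 lists 1, 4, 1 and 2 genes had an unadjusted p under 0.05, and DESeq2 called 1, 2, 0 and 1. The list of 12 upstream factors held 1 higher gene, Hif1a (median -0.10).

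In WT + NACET against WT, 4 of the 120 genes were called, or 3.33% beside 1.48% of all genes. Dusp1, a glucocorticoid-induced phosphatase, fell by 1.07 ± 0.17 in log2 (adjusted p = 0.00230), Adm, the HIF target adrenomedullin, by 1.43 ± 0.34 (adjusted p = 0.0362) and Zmat3, a p53 target, by 0.52 ± 0.12 (adjusted p = 0.0390), while Aen, another p53 target, rose by 0.43 ± 0.09 (adjusted p = 0.0131, edgeR). Among the alternative settings, the call was kept in 19 of 19 for Dusp1, 15 of 19 for Aen, 8 of 19 for Zmat3 and 8 of 18 for Adm. In Akita + NACET against WT none of the 120 was called by edgeR or by DESeq2 over all groups. An unadjusted p under 0.05 was found for 9 of them, beside 750 of the 16183 genes tested.

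Between the treated genotypes 27 of the 120 genes were called, or 22.5% beside 13.3% of all genes. Higher in Akita + NACET were 5 of 11 HIF targets (median 0.37), with Kdm3a at 0.56 ± 0.10 and Vegfa at 0.81 ± 0.16, and 4 of 12 glucocorticoid-induced genes (median 0.20), with Dusp1 at 0.96 ± 0.15 and Per1 at 0.84 ± 0.16. Of 12 ATF4 targets, 2 were higher, Atf3 (1.37 ± 0.25) and Trib3 (0.96 ± 0.19), and 1 was lower, with a median of 0.003. Atf4 itself (0.57 ± 0.16) was higher, as was the glucocorticoid receptor gene Nr3c1 (0.43 ± 0.13). Ddit4 is itself known to be induced by hypoxia, glucocorticoids and ATF4, and a link of these genes to it was not tested. Its own difference was 0.25 and missed the threshold. Hif1a, which was not called here, was lower in the mean in Akita + NACET (1100 ± 72.7 CPM, n = 5) than in WT + NACET (1174 ± 95.7 CPM, n = 6). The AMPK catalytic subunit gene Prkaa2 (0.37 ± 0.08) and the mTOR subunit gene Mlst8 (0.22 ± 0.07) were also higher. Each gene named here as higher had its lowest group mean in WT + NACET. Mean CPM in WT, WT + NACET, Akita and Akita + NACET was 58.2, 27.8, 51.3 and 54.1 for Dusp1. In the same order it was 171, 118, 170 and 175 for Atf4, and 9.10, 6.28, 6.93 and 11.0 for Vegfa. Lower were 4 of 16 genes of GATOR, Rag and Ragulator, with Rraga at -0.26 ± 0.06 and Lamtor2 at -0.31 ± 0.08. Also lower were the TSC subunit gene Tbc1d7 (-0.31 ± 0.09), Txn1 (-0.47 ± 0.11), the KEAP1 ligase component Rbx1 (-0.29 ± 0.09) and the p53 targets Ccng1 (-0.38 ± 0.08) and Aen (-0.44 ± 0.07). The adjusted p-values of the genes named for this contrast ranged from 0.000786 for Dusp1 to 0.0386 for Mlst8 by edgeR.

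For the interaction, 25 of the 120 genes were called, 11 positive and 14 negative, or 20.8% beside 20.3% of all genes, and 21 of them, at most 2 a list, are named here. Negative, as for Sesn1, were Prkab1 (-1.12 ± 0.20), Gadd45a (-0.71 ± 0.22), Txn1 (-0.67 ± 0.18), Ccng1 (-0.66 ± 0.13), Aen (-0.64 ± 0.12), Nfe2l2 (-0.55 ± 0.15), Rbx1 (-0.54 ± 0.14), Hif1a (-0.50 ± 0.14), Tbc1d7 (-0.50 ± 0.15), Lamtor2 (-0.42 ± 0.13), Tsc2 (-0.37 ± 0.12), Sec13 (-0.34 ± 0.12) and Txn2 (-0.34 ± 0.12), the last of which turned to 0.0129 with the covariate of reads outside exons. Positive were Adm (1.95 ± 0.47), Atf3 (1.35 ± 0.40), Vegfa (1.20 ± 0.25), Dusp1 (1.14 ± 0.24), Trib3 (0.998 ± 0.30), Ccng2 (0.95 ± 0.29), Per1 (0.80 ± 0.26) and Prkaa2 (0.39 ± 0.13). Their adjusted p-values ranged from 0.00240 for Prkab1 to 0.0498 for Txn2 by edgeR, and Sesn1 was at -0.46 ± 0.13.

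**Figure D5:**
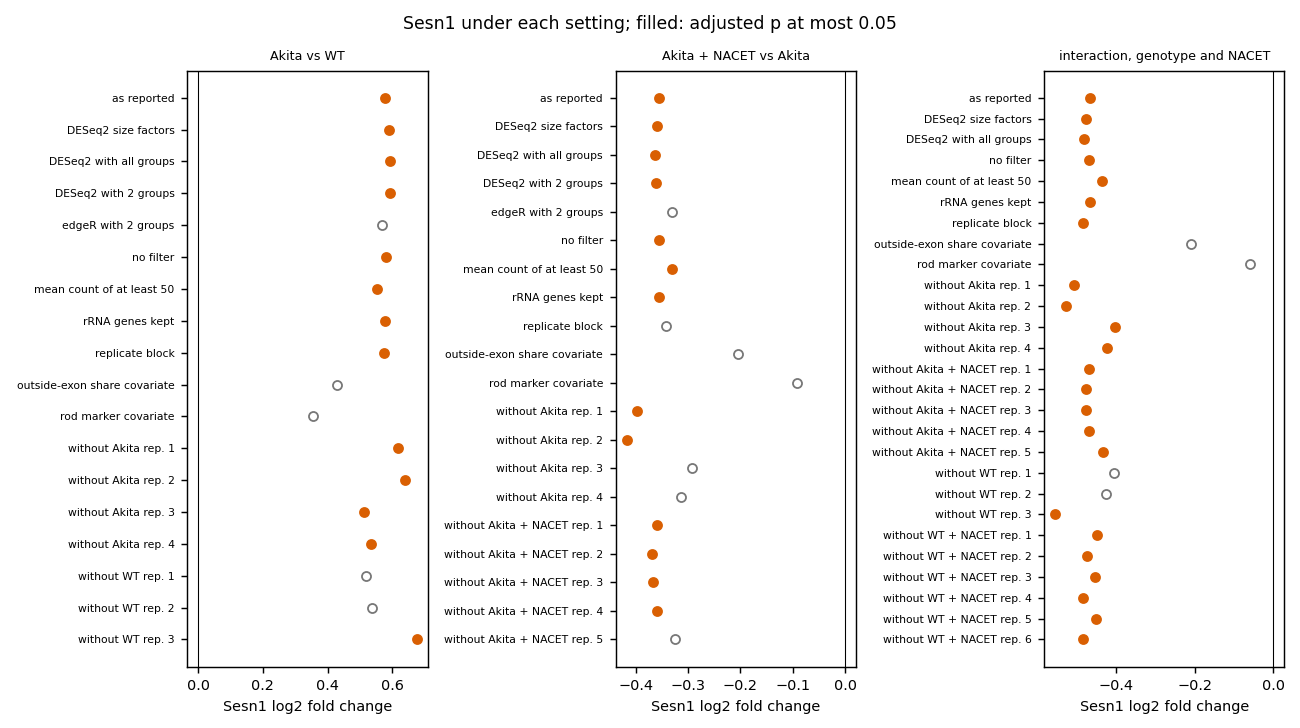
Log2 fold change of Sesn1 in 3 contrasts (Akita vs WT, Akita + NACET vs Akita, interaction) under each alternative setting, filled where the adjusted p was at most 0.05. The sign is the same in all settings, the call is kept in 12 of 17, 12 of 19 and 22 of 26 of them, and the values nearest to 0 are those with the rod marker covariate (0.36, -0.0927 and -0.0586).

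The Sesn1 calls rested on several libraries. In Akita against WT the call was lost without either of the lower WT libraries, replicate 1 (log2 fold change 0.52, adjusted p = 0.0972) and replicate 2 (0.54, adjusted p = 0.0649), and so was that of the interaction (adjusted p = 0.0642 and 0.0584). In Akita + NACET against Akita it was lost without either of the higher Akita libraries, replicate 3 (-0.29, adjusted p = 0.0576) and replicate 4 (-0.31, adjusted p = 0.0733), and without the lowest treated library, Akita + NACET replicate 5 (-0.32, adjusted p = 0.0617). It was also lost in the 2-group edgeR fits (adjusted p = 0.0634 and 0.0608), and was kept in DESeq2 with all groups (adjusted p = 2.97e-05 and 0.00346).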

How the data were processed

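Poly(A) libraries were made with an unstranded TruSeq kit and sequenced as single reads. The authors, per their methods, aligned the reads to mm9 with TopHat2 2.1.0 and Bowtie, and deposited raw counts per gene from HTSeq 0.11.2, without strand, as the submitters' processing notes also list. The members, lists and tests were chosen with earlier results of these data known. Counts of 18 libraries were joined, summary lines and 185 rRNA genes (0.977% of counts on average) and an unnamed line (0.00544%) were removed, and edgeR 4.0.16 (R 4.3.3) was run with TMM scaling, its filter by expression (minimum count 10), and 1 robust quasi-likelihood fit over all groups. Each contrast was adjusted by Benjamini-Hochberg over 16183 genes, with a threshold of 0.05 and no minimum fold. Intervals are 95% intervals from the same fit, and biological variation was 18.6% (coefficient of variation). CPM used TMM library sizes, and RPKM the union of mm9 exons. Named list genes were those called in Akita vs WT or Akita + NACET vs Akita (at most 4 a list) and otherwise at most 2 of smallest p a list. The 3 genes most like each member were taken by Pearson correlation of log2 CPM (prior count 2). Paired libraries within groups differed by 4.70 to 51.7 in chi-square per gene, so none was counted as a duplicate. Some genes that these rules name are not reported here. The fit was tested on simulated data. Alternatives used DESeq2 1.42.0, other filters, covariates and omission of each library.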

Additional observations from a re-analysis of the deposited data

Results flagged for a closer look

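The difference between the NACET effects on Sesn1 in the genotypes was marked because its own test passed: the effect in Akita minus that in WT was -0.46 on the log2 scale (edgeR, adjusted p = 0.0177). The values of the rod markers and of reads outside exons that moved with it stand in the report. Neither measure overlapped between Akita and Akita + NACET, so the fits with these covariates could not tell their part from that of NACET.

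Of 18 tests for a sample far from the rest of its group, 2 marked a library, where chance marks about 1 in 20. Sesn1 in Akita + NACET replicate 5, at 149.95 CPM, lay below the other 4 libraries at 166 to 170 CPM, and this library had the highest share of reads outside exons (19.8%) and the lowest rod marker sum (22044 CPM). Sesn3 in Akita + NACET replicate 4, at 33.7 CPM, lay above the other 4 at 28.7 to 29.5 CPM.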

How the results depend on the processing

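In every fit tried, Sesn1 kept its sign in the interaction, in Akita vs WT and in Akita + NACET vs Akita, while the ratio of Sesn1 to rod markers, which was not fitted, had the opposite direction with NACET. The count of members called in Akita vs WT, 1, became 0 in the 2-group edgeR fit and with either covariate, and was 0 to 1 when single libraries were left out. In Akita + NACET vs Akita it became 0 in the 2-group edgeR fit, with the replicate block and with either covariate (0 to 1 without single libraries), and for the interaction 0 with either covariate (0 to 1). It rose from 0 to 1 in WT + NACET vs WT with DESeq2 over all groups (Sesn3), and in Akita + NACET vs WT + NACET with DESeq2 or edgeR on 2 groups and a mean count of at least 50 (Ddit4; 0 to 1 without single libraries), and to 2 with the rod covariate (Ddit4 and Sesn1). The cause was not tested. The covariate of rod marker level was added after seeing the data.

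Reversed signs were all of differences that were not called, apart from Txn2. With the rod covariate, Akita vs WT became -0.00106 for Ddit4 and 0.0457 for Sesn3, Akita + NACET vs Akita became 0.12 for Ddit4 and -0.0930 for Sesn2, WT + NACET vs WT became -0.0341 for Sesn1, and the Ddit4l interaction became -0.0182. With the percentage of reads outside exons in the fit, Sesn3 became 0.0322 in Akita vs WT, Sesn2 -0.0569 in Akita + NACET vs Akita, the Ddit4l interaction -0.0389 and the Txn2 interaction 0.0129, from -0.34. Txnip in Akita + NACET vs WT became 0.00446 with DESeq2 size factors, 0.00885 in the 2-group edgeR fit, 0.00239 without a filter and 0.00286 with the replicate block.

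Without single libraries, Txnip ran from -0.18 to 0.79 in Akita vs WT, -0.39 to 0.18 in Akita + NACET vs Akita, -0.22 to 0.62 in WT + NACET vs WT, -0.25 to 0.58 in Akita + NACET vs WT, -0.17 to 0.0905 in Akita + NACET vs WT + NACET and -0.82 to 0.15 for the interaction. Ddit4 ran from 0.0467 to 0.27 in Akita vs WT, -0.19 to 0.0343 in Akita + NACET vs Akita and -0.0237 to 0.20 for the interaction, and Sesn3 from -0.0597 to 0.0013 in Akita vs WT. Txnip has no value under the mean count of at least 50, which removed it.

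The 56 calls of the list genes chosen for naming were kept in 5 to 24 of 17 to 26 settings each. Replicate numbers did not pair the libraries: over 22 pairs of libraries with the same number, the correlation of their deviations ran from -0.33 to 0.34 and exceeded 0.1 in 4. With the replicate block the call of Sesn1 in Akita + NACET vs Akita was lost (-0.34, adjusted p = 0.0538), and no other call of a member changed. Spearman correlations and a prior count of 0.5 left each likeness within the interval of its Pearson value, although by Spearman the genes named for Ddit4 fell to ranks of 25.5 to 64.5, Ahnak to 73 and Srrm3 to 45, and DESeq2 normalized counts left each ratio of group means within 1 SD. Txnip had the fewest counts, 20 to 93 per library, and the widest spread between libraries.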
